A study of Mus musculus with 8 samples.

Results

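A set of 10 genes of the extracellular matrix was followed through all 8 libraries of a study that deleted Bmpr1a, which encodes a receptor for BMPs (bone morphogenetic proteins), in the mouse hair follicle. The genes were taken by symbol: Tnc, Postn, Sparc and Fn1, Bgn and Dcn, Mfap2, Sdc3, and Col1a1 and Col3a1. All 10 were found in each of the 3 deposited tables, which list 22431 distinct names in bulge stem cells (HFSC), 22431 in transit-amplifying cells (TACs) of Shh-CreER mice and 33365 in TACs of K15-CrePGR hair bulbs. They were chosen by their measured FPKM differences between deleted and control libraries in these same tables, so those differences are given as a description and carry no p-value of their own.

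All mice were of mixed strain. In bulge stem cells of K15-CrePGR mice at postnatal day 68, 1 library labelled Het was set beside 1 library labelled cKO for Bmpr1a. In TACs of Shh-CreER mice at day 68, there was again 1 Het and 1 cKO library. In TACs of K15-CrePGR hair bulbs at day 80, WT samples 52 and 57 were set beside KO samples 64 and 84. The labels do not say how many alleles the Het animals carried in working form, whether samples 52, 57, 64 and 84 are separate animals, whether animals were pooled, or how cells were isolated. K15-CrePGR is an inducible Cre recombinase that the keratin 15 promoter drives in bulge cells, the stem cells whose progeny form the bulb. Shh-CreER is a tamoxifen-dependent Cre expressed where sonic hedgehog is made, in part of the hair matrix.

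Fibrillar collagens, of which Col1a1 and Col3a1 encode chains, form the tensile fibres of the dermis and are made mainly by fibroblasts. Small leucine-rich proteoglycans such as biglycan (Bgn) and decorin (Dcn) bind those fibres and also growth factors of the TGF-beta family. Matricellular proteins such as tenascin-C (Tnc), periostin (Postn) and SPARC are secreted into the matrix, where they modulate adhesion more than they bear load. Mfap2 is a component of elastic microfibrils, and syndecan-3 (Sdc3) is a heparan sulfate proteoglycan of the cell surface. Epithelial cells of the follicle and the dermal cells that surround the bulb can both make several of them.

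Expression was given as FPKM, which divides fragments by the length of the transcript and the size of the library, so levels of different genes can be compared within a library. The 3 tables were normalized separately, and deleted and control libraries were compared only within a table. Log2 differences are deleted minus control on log2(FPKM + 1), which understates changes of low genes. Sequencing depth was not stated. Low values step by the worth of 1 read, and the most common ratio of low values put the depth of the cKO library at 0.854 times that of Het in HFSCs and at 1.00 times in Shh-CreER TACs. Bmpr1a itself lay between 31.8 and 46.0 FPKM over the 8 libraries, which as a whole-gene level is no check of the deletion. Transcripts of Id1 and Id3, direct targets of BMP signalling, were lower in every deleted library than in every control library of the same table. Markers of the labelled cells were present. The bulge list (Krt15, Cd34 and others) summed to 8720 FPKM in Het and 3613 in cKO HFSCs, of which Krt15 alone held 7834 and 3075 FPKM. In that list of 6 genes, 4 were lower in cKO, while Sox9 (59.4 and 120 FPKM) and Lgr5 (55.2 and 70.3 FPKM) were higher. The list of hair matrix TACs (Shh, Msx2 and others) summed to 2071 FPKM in Het and 506 in cKO Shh-CreER TACs. Krt85 alone held 1533 and 138 FPKM of these sums. Of the 6 genes, 4 were lower in cKO, while Shh (111 and 199 FPKM) and Edar (14.1 and 52.5 FPKM) were higher. In the hair bulbs, where Krt85 had no value, the other 5 genes summed to between 222 and 365 FPKM. Sex-linked transcripts differed between libraries: Xist stood at 68.9 FPKM and the Y-linked Ddx3y at 0.255 FPKM in Het HFSCs, against 3.98 and 23.2 FPKM in cKO HFSCs, and WT 52 was the only bulb library with high Ddx3y (26.4 FPKM). Both were present in each Shh-CreER library, Xist at 68.2 and 102 FPKM and Ddx3y at 10.001 and 14.8 FPKM.

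In bulge stem cells, 3 of the 10 genes stood far higher in the library without Bmpr1a, and they came from 3 different classes: the proteoglycan Bgn, the microfibril gene Mfap2 and the matricellular gene Tnc. Of the interstitial collagen chains, Col1a1 and Col3a1 stood at no more than 2.03 FPKM in either library. Postn was by far the most abundant of the 10 and differed little. Each genotype had 1 library, and no replicate is at hand to check these differences. The same libraries differed in the sex-linked transcripts given above, and the part of this in any of the 10 genes was not tested.

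Bgn stood at 2.65 FPKM in Het against 149 in cKO, a 56.3-fold ratio and a log2 difference of 5.36. That was the highest log2 difference among the 12205 genes of the table whose mean reached 1 FPKM. Mfap2 stood at 3.64 and 49.1 FPKM (log2 difference 3.43, rank 21). Tnc stood at 8.23 and 86.3 FPKM (log2 difference 3.24, rank 27). Bgn lies on the X chromosome, and the libraries also differed in the sex-linked transcripts given above; the part of this in the Bgn value was not tested.

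The stretches just upstream of these 3 genes are shown because they are the members that stood highest without Bmpr1a in bulge cells, and that of Col3a1 is shown beside them as a member nearly silent there. Each is the 250 bases before the most upstream transcript start in RefSeq, build GRCm38.p6, 5′ to 3′ on the strand of the gene. Bgn is chrX:73483351-73483600 (plus strand), Mfap2 is chr4:141010174-141010423 (plus), Tnc is chr4:64047016-64047265 (minus) and Col3a1 is chr1:45311288-45311537 (plus). Capitals mark the letters TATAAA, the core sequence of a TATA box, and whether they act as one at these places was not tested.
Bgn: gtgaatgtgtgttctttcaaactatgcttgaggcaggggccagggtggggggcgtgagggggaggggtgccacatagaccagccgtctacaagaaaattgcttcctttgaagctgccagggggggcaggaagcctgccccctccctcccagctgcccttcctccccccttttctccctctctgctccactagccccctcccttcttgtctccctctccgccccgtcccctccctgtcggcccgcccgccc
Mfap2: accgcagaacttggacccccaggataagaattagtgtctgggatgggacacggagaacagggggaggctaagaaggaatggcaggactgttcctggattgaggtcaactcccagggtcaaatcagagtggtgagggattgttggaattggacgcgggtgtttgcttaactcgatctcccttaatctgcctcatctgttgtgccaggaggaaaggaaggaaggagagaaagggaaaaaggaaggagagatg
Tnc: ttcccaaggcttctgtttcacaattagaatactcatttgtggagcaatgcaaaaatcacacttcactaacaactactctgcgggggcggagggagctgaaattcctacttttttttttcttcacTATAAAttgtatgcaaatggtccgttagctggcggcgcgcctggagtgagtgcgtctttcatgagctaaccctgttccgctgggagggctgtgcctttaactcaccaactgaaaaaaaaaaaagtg
Col3a1: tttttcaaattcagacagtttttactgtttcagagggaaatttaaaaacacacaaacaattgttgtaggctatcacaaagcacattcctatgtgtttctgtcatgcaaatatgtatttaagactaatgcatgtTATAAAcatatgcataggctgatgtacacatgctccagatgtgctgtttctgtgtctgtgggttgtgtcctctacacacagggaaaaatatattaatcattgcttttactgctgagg

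The upstream stretches differ in makeup. That of Bgn is 64.4% G or C, that of Mfap2 51.2%, that of Tnc 44.8% and that of Col3a1 35.2%. TATAAA was searched on both strands, with GGCGCC, a GC-rich palindrome that BMP-activated SMADs are known to bind, and TGANTCA, the AP-1 site; none of the 3 motifs overlaps another in these stretches. Tnc holds TATAAA at bases -126 to -121 and Col3a1 at -117 to -112, counted from the start. Of 32841 RefSeq upstream stretches of 250 bases, 12.4% hold TATAAA, 9.59% GGCGCC and 6.75% TGANTCA. No match to GGCGCC or TGANTCA was found in the 7 members that have an entry (Postn, Sparc and Sdc3 beside the 4 printed), which says only that these letters are not in these windows.

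The other matricellular genes did not share the large difference of Tnc. Postn, at 1393 FPKM in Het and 1115 in cKO (log2 difference -0.32), was the most abundant member in both bulge libraries. Sparc, a collagen-binding glycoprotein, stood at 215 and 433 FPKM, just past 2-fold with a log2 difference of 1.01; median scaling, quantile normalization, rescaling and a pseudocount of 5 each put it under 2-fold (0.83 to 0.99). Fn1, the adhesive glycoprotein fibronectin, stood at 3.85 and 3.47 FPKM. Tnc was thus the single one of these 4 to be both low in Het and high in cKO.

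Col3a1, Col1a1 and Dcn were the lowest members in both bulge libraries. The median over all names was 1.83 FPKM in Het and 1.93 in cKO. Col3a1 stood at 0.0643 and 0.342 FPKM and did not reach the mean of 1 FPKM. Col1a1 stood at 0.637 and 2.03 FPKM, and Dcn at 0.342 and 1.77 FPKM; both reached that mean only through the cKO library. Sdc3 stood at 2.66 and 4.62 FPKM (log2 difference 0.62). Over the 9 members that reached the mean, 5 were at least 2-fold higher (Bgn, Mfap2, Tnc, Dcn and Sparc), beside 5.92% of all genes tested, and 0 were 2-fold lower, beside 4.6%. Of the 9, 2 (Postn and Fn1) were lower in cKO by any amount, beside 45.8% of genes, and 7 were higher, beside 54.2%. With a pseudocount of 5 FPKM the count was 3, Bgn, Mfap2 and Tnc.

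Dermal fibroblast markers were low in both bulge libraries, with 5 of 10 higher and 5 lower in cKO. The 10 genes of that list summed to 24.9 FPKM in Het and 12.99 in cKO; 7 and 8 of them were under 1 FPKM, among them the defining Pdgfra, Lum, Dpt and Twist2, which were each slightly higher in cKO. The lower sum came mostly from Col1a2 (7.10 and 1.68 FPKM), Clec3b (5.33 and 0.686 FPKM) and Thy1 (11.6 and 9.33 FPKM). Endothelial markers summed to 0.382 and 0.688 FPKM, and immune markers to 148 and 62.4 FPKM. The list of smooth muscle and dermal sheath did differ, with sums of 11.8 and 96.4 FPKM: the contractile genes Myl9 (8.49 and 48.1 FPKM), Tagln (1.72 and 23.2 FPKM) and Acta2 (0.691 and 23.2 FPKM) were higher in cKO, while Des, Rgs5, Myh11 and Pdgfrb were under 0.2 FPKM in both libraries. The melanocyte list summed to 3.40 and 28.9 FPKM; the part of either list in the result was not tested. The follicle epithelium markers summed to 13708 and 13698 FPKM.

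**Figure D1:**
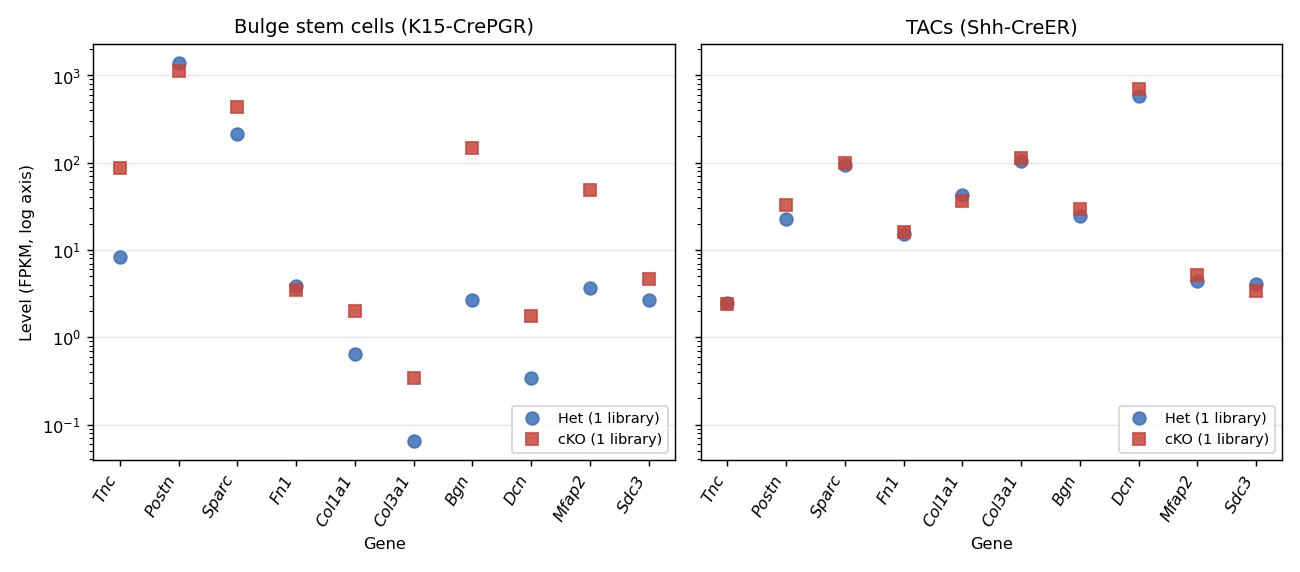
Level of each of the 10 genes in FPKM (log axis) in the Het library (circles) and the cKO library (squares) of bulge stem cells, left, and of Shh-CreER TACs, right, 1 library each. In bulge cells Bgn, Mfap2 and Tnc lie far apart between the libraries, whereas in Shh-CreER TACs the libraries lie close together for all 10 genes.

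In TACs of Shh-CreER mice the same 10 genes hardly differed. None of them was 2-fold apart between Het and cKO, beside 2.67% of 12296 genes that were 2-fold or more higher and 2.77% lower by as much. Of the 10, 3 (Tnc, Col1a1 and Sdc3) were lower in cKO by any amount, beside 48.8% of genes, and 7 were higher, beside 51.2%. The largest difference was that of Postn, at 22.4 FPKM in Het and 32.9 in cKO (log2 difference 0.53). Bgn, at 24.5 and 29.3 FPKM, and Mfap2, at 4.41 and 5.18 FPKM, were slightly higher in cKO, and Tnc stood at 2.46 and 2.42 FPKM (log2 difference -0.02, or 0.06 after rescaling to the sum over named genes). Again there was no replicate.

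Among control libraries, some members stood elsewhere in the order of levels than in bulge cells. Sparc was near the top in each table. Fn1, Mfap2 and Sdc3 kept the same order among themselves in the controls, but not in cKO bulge cells (3.47, 49.1 and 4.62 FPKM). Dcn led with 579 and 709 FPKM, followed by Col3a1 with 105 and 112 FPKM and Sparc with 95.0 and 98.4 FPKM, while Tnc was last. Dcn and Col3a1 were the 2 lowest members of the bulge table, and Tnc was the third highest in its control library. Col1a1 stood at 42.6 and 36.9 FPKM, Fn1 at 15.1 and 16.3 FPKM and Sdc3 at 4.04 and 3.38 FPKM, each closer than 2-fold.

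These TAC libraries carried dermal transcripts. The dermal fibroblast list summed to 176 FPKM in Het and 201 in cKO, with 1 and 0 of its 10 genes under 1 FPKM. The dermal papilla list summed to 263 and 488 FPKM, mostly Wif1 (232 and 459 FPKM), with 5 of 10 genes under 1 FPKM in each. Endothelial markers summed to 18.6 and 31.8 FPKM, and the 4 skeletal muscle markers to 110 and 18.8 FPKM. The epithelial list summed to 1821 and 2409 FPKM. In bulk RNA, fewer cells of a type and less RNA per cell cannot be told apart, and the share of the members' signal that comes from dermal cells was not tested.

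In K15-CrePGR hair bulbs, 9 of the 10 genes were higher in both KO libraries than in both WT libraries, the exception being Dcn. The KO libraries were not alike. Mfap2 and Sdc3 were about equally high in KO 64 and KO 84. The collagens and Fn1 were several times higher in KO 64 than in KO 84, and for these KO 84 was 1.26 to 1.80 times the higher WT library.

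Mfap2 (mm9 chromosome 4, 140566332 to 140571899) stood at 2.10 FPKM in WT 52, 1.54 in WT 57, 19.2 in KO 64 and 21.9 in KO 84. Both KO values were high and close together. The means were 1.82 ± 0.398 and 20.6 ± 1.95 FPKM (SD, n = 2 and 2), with a log2 difference of 2.94 ± 0.19 (SE of the limma fit).

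Sdc3 (chromosome 4, 130348451 to 130382234) stood at 1.71, 1.40, 16.0 and 15.9 FPKM in the same order of libraries. It had the tightest KO pair of the 10 genes, with means of 1.56 ± 0.214 and 16.0 ± 0.0588 FPKM and a log2 difference of 2.73 ± 0.17. An entry of another gene at the same locus, Gm12970, did not exceed 0.204 FPKM.

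Bgn stood at 16.7, 20.5, 119 and 74.6 FPKM. KO 84 alone was 3.64 times the higher WT library, and the log2 difference was 2.29 ± 0.28. Bgn and Haus7 are listed at one merged locus (mm9 chromosome X, 70682653 to 70741272), and Haus7 went with no such difference (39.6, 54.2, 30.1 and 46.4 FPKM). Xist was high in WT 57 and both KO libraries (175 to 226 FPKM) and low in WT 52 (3.26 FPKM); its part in the value of this X-linked gene was not tested.

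Dcn (chromosome 10, 96940419 to 96980794), a proteoglycan of the same family as Bgn, was the most abundant member, at 284, 382, 551 and 291 FPKM. KO 84 lay between the WT libraries, so the groups overlapped (log2 difference 0.28 ± 0.38). Without KO 64 the difference was -0.18.

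Among the matricellular genes, Postn (chromosome 3, 54165030 to 54194961) stood at 5.40, 7.65, 85.5 and 33.8 FPKM. Both KO libraries were high, KO 64 more so by 2.53 times, and the log2 difference was 2.88 ± 0.49. Tnc (chromosome 4, 63620818 to 63810958) stood at 2.98, 3.46, 12.3 and 7.61 FPKM, with a log2 difference of 1.34 ± 0.27. It was the lowest of the 10 genes in both KO libraries.

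Sparc is listed by 2 entries at one locus (mm9 chromosome 11, 55205610 to 55233582). The larger entry stood at 60.3, 24.0, 233 and 99.5 FPKM and the smaller at 10.8, 16.2, 67.0 and 77.2 FPKM. For both entries each KO library lay above each WT library, with log2 differences of 1.97 ± 0.62 for the larger and 2.36 for the smaller. The sources used here do not say why the locus was split.

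Fn1 (chromosome 1, 71632092 to 71709417) stood at 12.4, 17.3, 89.4 and 22.4 FPKM. KO 64 stood alone, since KO 84 was 1.29 times the higher WT library. The log2 difference of 1.55 ± 0.69 was 0.58 without KO 64.

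Col1a1 (chromosome 11, 94797537 to 94814357) stood at 36.8, 10.5, 294 and 46.4 FPKM. Col3a1 (chromosome 1, 45368382 to 45406551) stood at 31.3, 16.7, 293 and 56.4 FPKM. In both, KO 64 was several times above the other 3 libraries and WT 52 was above WT 57. Their log2 differences, 2.50 ± 1.08 and 2.44 ± 0.86, were 1.19 and 1.27 without KO 64.

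Of the 13565 loci that carry a gene name and whose mean reached 1 FPKM, 26.8% were higher in both KO libraries than in both WT libraries, beside 9 of the 10 members; 27.5% were lower in both, beside 0 members. At least 2-fold higher were 9 members, beside 10.1% of loci, and 2-fold lower 0, beside 2.55%. By limma with Benjamini-Hochberg adjustment, 5 loci were higher (0.0369%) and 4 lower (0.0295%), and 0 of the 10 members were among them. Those 9 calls were 0 without WT 52 or without WT 57, 15 without KO 64 and 23 without KO 84, each time with 0 members among them, while a pseudocount of 0.1 called Mfap2 and Sdc3 and rescaling called Mfap2. At an unadjusted limma p under 0.05, 10.3% of loci were higher and 7.08% lower. Since these contrasts were known when the genes were chosen, nothing is read from the counts and calls of members. Nothing in the labels makes the libraries of a group separate animals, so no error given here can be taken as variation between animals. The SDs show how far apart the libraries of a group lie. The limma errors are moderated, so they also draw on the variances of the other fitted loci.

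**Figure D2:**
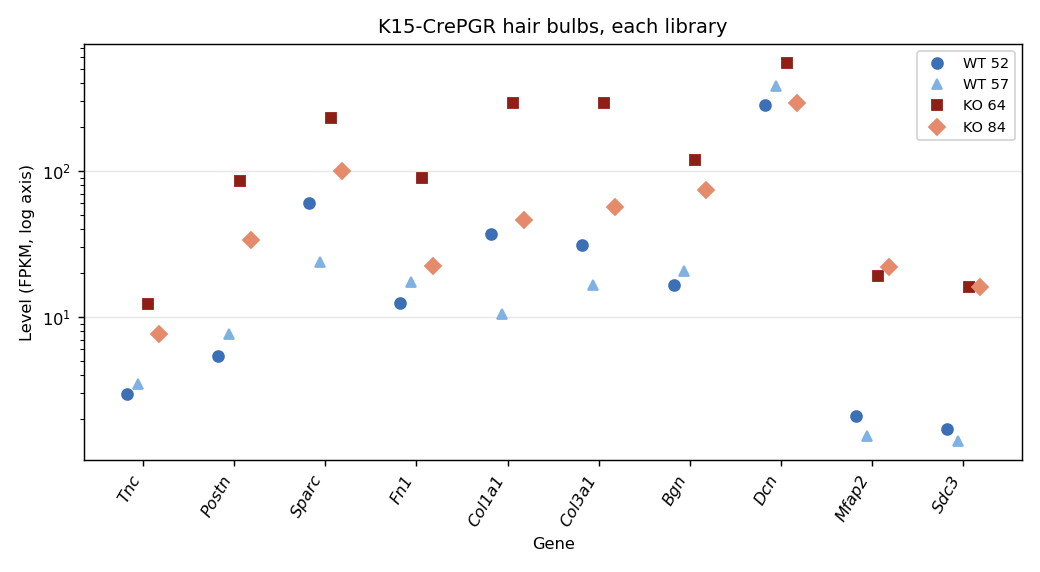
Level of each of the 10 genes in FPKM (log axis) in each K15-CrePGR hair bulb library, WT 52 and WT 57 in blue and KO 64 and KO 84 in red tones. Every gene but Dcn lies higher in both KO libraries, with KO 64 far above KO 84 for Col1a1, Col3a1 and Fn1 and level with it for Mfap2 and Sdc3.

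The ratio of KO 64 to KO 84 put the 10 genes in an order. It was 6.33 for Col1a1, 5.19 for Col3a1 and 3.98 for Fn1. It was 2.53 for Postn, 2.34 for the larger entry of Sparc, 1.89 for Dcn, 1.61 for Tnc and 1.60 for Bgn. The smaller Sparc entry went the other way, at 67.0 FPKM in KO 64 and 77.2 in KO 84. For Sdc3 it was 1.01 and for Mfap2 0.874. The median over 13302 loci above 0 in all 4 libraries was 0.957. The 10 dermal fibroblast markers were all higher in KO 64, by 2.61 to 6.13 times, and the 5 follicle epithelium markers all lower there, by a ratio of 0.621 to 0.986.

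KO 64 also had the highest summed markers of several dermal cell types. The fibroblast list summed to 87.2 FPKM in WT 52, 60.8 in WT 57, 660 in KO 64 and 137 in KO 84. The immune list ran from 27.7 to 120 FPKM in WT, with 986 FPKM in KO 64 and 168 in KO 84. Endothelial markers summed to 3.30, 1.44, 32.1 and 4.43 FPKM, and the list of smooth muscle and dermal sheath to 25.1, 22.4, 148 and 79.2 FPKM. The dermal papilla list summed to 45.1, 42.2, 128 and 64.3 FPKM, mostly Wif1 (25.3, 29.5, 96.9 and 57.1 FPKM). Only 3 of its 10 genes were higher in both KO libraries, and 0 were lower in both. Skeletal muscle markers summed to 12.3, 8.85, 11.2 and 9.26 FPKM, with 0 of 3 higher in both KO libraries. Of the fibroblast markers 9 of 10 were higher in both KO libraries, Fap being lower. The epithelial sum was also higher in KO, at 827 and 839 FPKM in WT, 1842 in KO 64 and 2762 in KO 84. Most of that sum was Krt5 and Krt14. Of the 5 epithelial genes 4 were higher in both KO libraries. Cdh1 was lower, at 51.2 FPKM in KO 64 and 71.1 in KO 84 against 77.1 and 81.9 in WT. The bulge list summed to 124 and 176 FPKM in WT against 490 and 617 FPKM in KO.

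**Figure D3:**
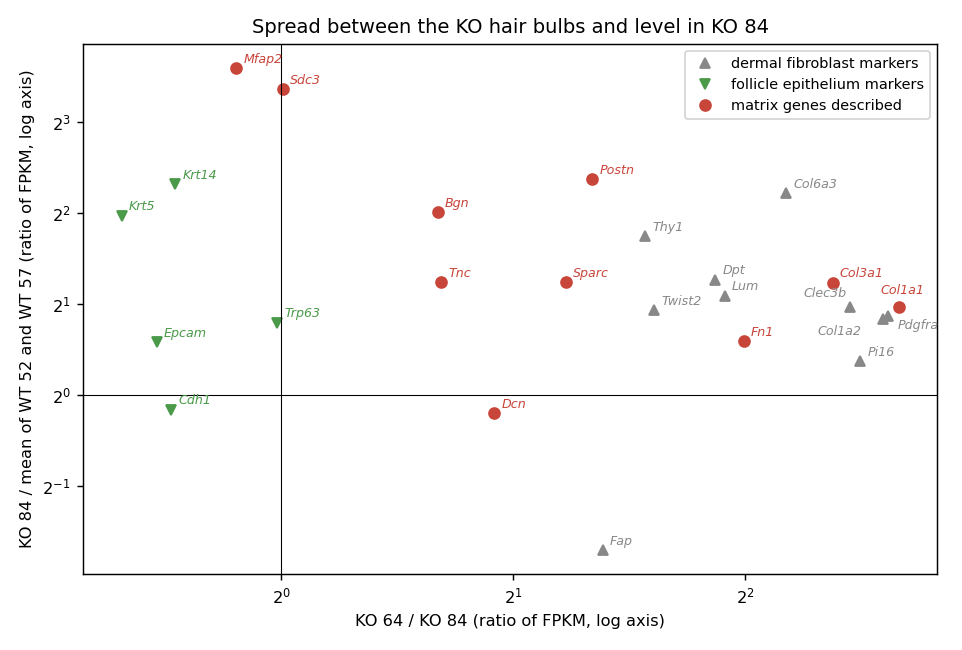
Ratio of KO 64 to KO 84 (horizontal, log axis) against the ratio of KO 84 to the mean of the WT libraries (vertical, log axis) for the 10 genes, 10 dermal fibroblast markers and 5 follicle epithelium markers. Col1a1, Col3a1 and Fn1 lie to the right among the fibroblast markers, and Mfap2 (12.0) and Sdc3 (10.2) lie highest on the vertical axis, above the epithelial markers (0.895 to 4.98).

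Set against the summed fibroblast list of the same library, the members split in another way. Mfap2 was 0.0241 and 0.0253 of that sum in the WT libraries, 0.0290 in KO 64 and 0.160 in KO 84. For Sdc3 the ratios were 0.0196, 0.0231, 0.0243 and 0.116. In both, KO 64 lay near the WT ratio and KO 84 far above it. The ratio of Bgn was 0.191, 0.337, 0.180 and 0.545, and that of Postn 0.0619, 0.126, 0.129 and 0.247, with KO 84 highest in each.

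The fibroblast list itself holds Col1a2, the partner chain of Col1a1, at 40.6, 10.7, 276 and 45.7 FPKM, and Col6a3, so its sum is not independent of collagen levels and nothing is read from the ratios of the collagens to it. Col3a1 was 0.358, 0.274, 0.444 and 0.412 of it, and Col1a1 0.422, 0.172, 0.445 and 0.339. Sparc (larger entry) was 0.692, 0.394, 0.352 and 0.727 of it, Fn1 0.142, 0.285, 0.135 and 0.164, and Tnc 0.0342, 0.0569, 0.0186 and 0.0556. For none of these 3 genes did the KO ratios lie both above or both below the WT ratios. Dcn was 3.26 and 6.29 times the sum in WT, 0.834 in KO 64 and 2.13 in KO 84, lower in both KO libraries. These are ratios of transcript levels, and the part of dermal cells in the KO differences was not tested.

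**Figure D4:**
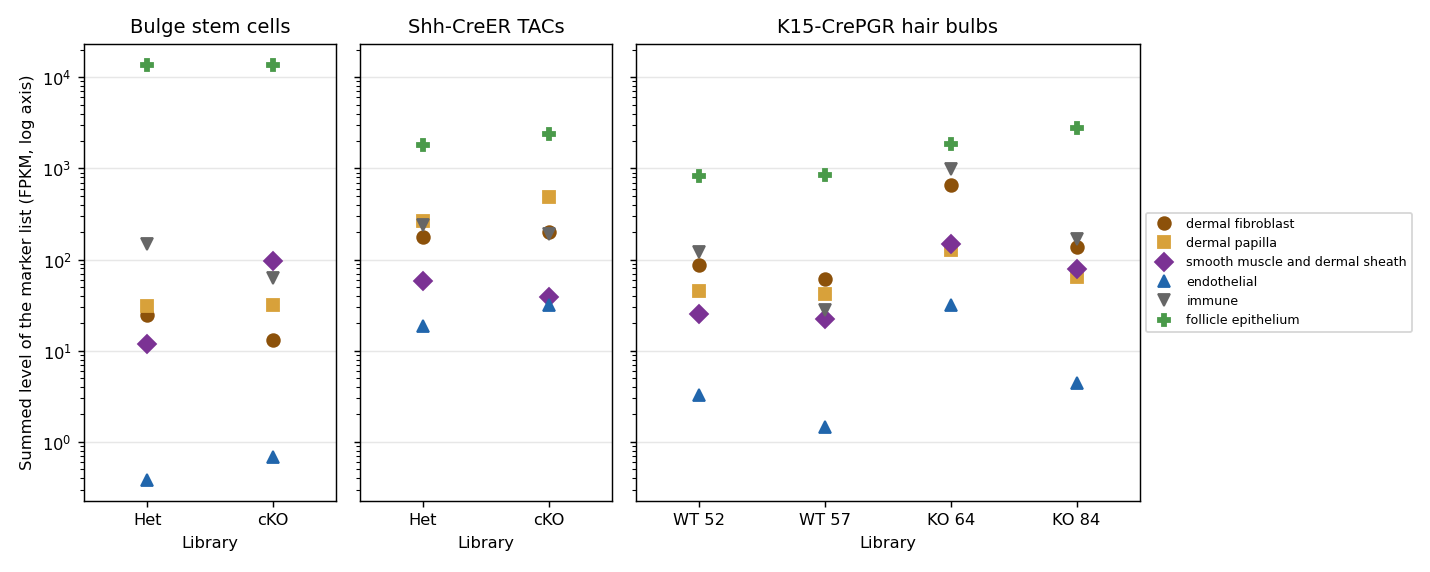
Summed level in FPKM (log axis) of 6 marker lists in each of the 8 libraries, by table. Among the hair bulbs KO 64 has the highest dermal and immune sums, with immune markers at 986 FPKM, and in bulge stem cells the fibroblast sum is 24.9 and 12.99 FPKM.

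Beyond the 10 members, 122 matrix genes in 8 lists were examined by class; 121 are listed in the tables. In bulge stem cells 72 of them reached a mean of 1 FPKM, of which 18 were 2-fold or more higher in cKO, beside 5.92% of all genes, and 8 lower by as much, beside 4.6% (median log2 difference 0.23, against 0.05 over all genes). The matricellular list was split, 3 higher and 3 lower of 12. Smoc1 (3.68 and 24.8 FPKM) and Smoc2 (40.6 and 213 FPKM), calcium-binding relatives of SPARC, and the matrilin Matn2 (15.3 and 58.4 FPKM) were higher. The 3 lower ones were Tnxb (11.6 and 2.999 FPKM), a relative of Tnc, Cyr61 (612 and 248 FPKM) and Ecm1 (307 and 106 FPKM).

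Collagen genes in bulge cells went both ways. Col6a1 (101 and 25.8 FPKM) and Col6a2 (37.8 and 12.0 FPKM), chains of beaded-filament collagen, were lower, and Col16a1 (17.4 and 52.9 FPKM) was higher. Among collagen-processing genes, the proteinase enhancer Pcolce2 (17.5 and 1.93 FPKM) was lower, whereas Bmp1 (9.91 and 29.7 FPKM), a procollagen proteinase, was higher, and the collagen chaperone Serpinh1 (104 and 204 FPKM) was higher by just under 2-fold on this scale.

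Partners of the proteoglycans and microfibrils in bulge cells were next. Fbln2 (4.91 and 18.1 FPKM) and Efemp1 (8.85 and 21.1 FPKM) of the elastic fibre, the glypican Gpc4 (39.3 and 116 FPKM) and the hyaluronan receptor Cd44 (39.9 and 101 FPKM) were higher. Fmod (9.45 and 2.06 FPKM), a proteoglycan related to Bgn, was lower. Timp3 (17.8 and 124 FPKM), an inhibitor of matrix proteinases, and the proteinase Mmp2 (12.4 and 44.0 FPKM) were higher.

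In Shh-CreER TACs 94 of the 122 reached the mean, with 5 past 2-fold higher, beside 2.67% of all genes, and 1 lower, beside 2.77% (median log2 difference 0.30, against 0.01 over all genes). Smoc2 (29.7 and 172 FPKM), Ctgf (6.58 and 35.3 FPKM), Fbln2 (9.32 and 25.7 FPKM) Col16a1 (5.002 and 11.7 FPKM) and Matn4 (0.673 and 3.61 FPKM) were the higher ones, and the proteinase Mmp13 (2.10 and 0.0519 FPKM) the lower one.

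In K15-CrePGR hair bulbs 93 reached the mean, and limma called 0 of them after Benjamini-Hochberg adjustment. At an unadjusted p under 0.05, 53 of 93 were higher, beside 10.3% of all loci, and 0 lower, beside 7.08%. Rescaled to the sum over named genes, 1 passed, Smoc2. Both KO libraries lay above both WT libraries for 85 of 93, beside 26.8% of all loci, and below them for 1, Fap, beside 27.5%, with a median log2 difference of 1.43 against -0.03 over all loci. The share ran across classes, with 11 of 11 collagens, 15 of 15 matricellular genes, 7 of 7 proteoglycans, 12 of 14 elastic fibre genes, 7 of 8 syndecans and glypicans, 15 of 17 collagen-processing genes, 9 of 11 receptors and 9 of 10 proteases and inhibitors. A Smoc2 level of 24.0 ± 1.88 FPKM in WT and 132 ± 31.4 FPKM in KO (log2 difference 2.39 ± 0.22, limma adjusted p = 0.0866) came nearest to the threshold among the genes named by rule. The same 93 genes were higher in KO 64 than in KO 84 in 78 cases, with a median ratio of 2.92. The lists were chosen with earlier results of these data known, so their counts in all 3 tables are a description only.

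Serpinh1 (32.9 ± 9.06 and 128 ± 15.3 FPKM, limma adjusted p = 0.0921) and Col14a1 (1.36 ± 0.580 and 15.6 ± 6.29 FPKM, limma adjusted p = 0.0960) did not pass the threshold either. Col6a3 (2.23 ± 0.565 and 28.7 ± 25.9 FPKM, limma adjusted p = 0.201) shows the spread that KO 64 brings, at 47.0 FPKM there and 10.4 FPKM in KO 84. Syndecans other than Sdc3 differed less: Sdc2, also a heparan sulfate proteoglycan, stood at 6.52 ± 0.805 and 13.3 ± 3.83 FPKM (limma adjusted p = 0.212).

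**Figure D5:**
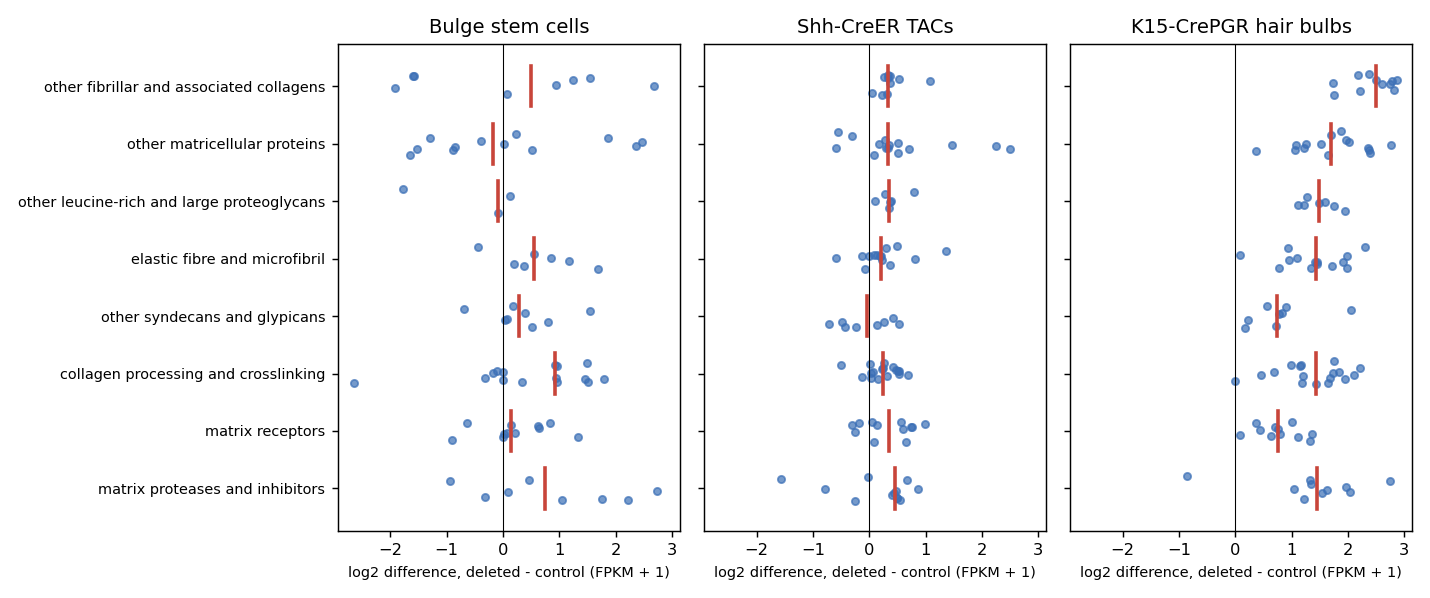
Log2 difference (deleted minus control, FPKM + 1) of each matrix gene outside the 10 that reached a mean of 1 FPKM, by class, in the 3 tables; points are genes and red bars are medians. Points scatter to both sides in bulge stem cells, gather nearer 0 in Shh-CreER TACs and lie to the right of 0 for most genes in K15-CrePGR hair bulbs.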

How the data were processed

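The authors deposited FPKM values per gene in 3 tables, with 1 column per library; build mm9, TopHat and Cufflinks are named, per the submitters' processing notes, and the sources used here give no versions. Columns were matched to samples by title. In the K15-CrePGR table, 8904 loci without a gene name stayed out; they held 78.4% to 79.0% of a library's FPKM. A repeated symbol was represented by its entry of highest mean. Where KO and WT bulbs were fitted, limma 3.58.1 in R 4.3.3 (moderated by empirical Bayes with a trend on intensity, tests two-sided) was run on log2(FPKM + 1) of the 13565 loci that have a name and reach a mean of 1 FPKM, adjusted by Benjamini-Hochberg with a threshold of 0.05, after a test on simulated data. The other 2 tables hold 1 library a group and were not tested; there a gene counts as different from 2-fold on FPKM + 1.

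The 10 members and the gene lists were chosen with earlier results of these data known. Of each list of other matrix genes, the 3 that differed most in a table, if their mean there reached 5 FPKM, were eligible to be named, and not all are printed; other genes are members, markers or were named after their values were seen. Levels in low steps gave no clear depth ratio in the K15-CrePGR table, where the most common ratio held 1.26% of loci at most. Overlapping genes cannot be told apart without strand, and the sources used here do not state it. Upstream stretches come from RefSeq (GRCm38.p6), and 7 of 10 members matched; Dcn, Fn1 and Col1a1 did not. Alternatives were pseudocounts of 0.1 and 5, no filter or one of 5 FPKM, median scaling, quantile normalization, rescaling to the sum over named genes, summed repeated symbols, no trend and each bulb library left out. The second Sparc entry was added after the data were seen. Python 3.11.15, numpy 2.4.6, pandas 2.3.3 and matplotlib 3.10.9 were used.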

Additional observations from a re-analysis of the deposited data

Results flagged for a closer look

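Of the 10 genes, 5 went in opposite directions in different tables, and none of these differences between tables was tested. By any amount, 45.8% of all genes were lower in cKO bulge cells and 48.8% in cKO Shh-CreER TACs. The share of all genes that differ in direction between tables was not counted, so nothing is read from the 5. Postn was lower in cKO than in Het bulge cells (log2 difference -0.32) and higher in the deleted libraries of both TAC tables. Fn1 was likewise lower in cKO bulge cells (-0.12) and higher in both TAC tables. Col1a1 (-0.20), Sdc3 (-0.20) and Tnc (-0.015) were lower in cKO than in Het TACs of Shh-CreER mice and higher in deleted bulge cells and in both KO hair bulbs. With rescaling to the sum over named genes the value of Tnc was 0.06. Each of the 5 lower values is under 2-fold, and each rests on 1 library per genotype.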

How the results depend on the processing

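No paired analysis was possible because the WT and KO hair bulbs carry different sample numbers and the other tables hold 1 library per group. The number of bulb loci called by limma, 9 as reported, was 21 with a pseudocount of 0.1, 5 without a filter, 15 with a filter of 5 FPKM, 14 after rescaling to the sum over named genes, and 0 to 23 when a library was left out: 0 without WT 52 or without WT 57, 15 without KO 64 and 23 without KO 84. With 1 library left in a group, that library is assumed to vary like the other group. Mfap2 passed the limma threshold with a pseudocount of 0.1 and after rescaling, and Sdc3 with a pseudocount of 0.1. As the members were chosen by these same differences, nothing is read from those calls. Of the other matrix genes, 1 (Smoc2) passed after rescaling, against 0 as reported and under the remaining alternatives. The 5 members at least 2-fold higher in bulge cells were 3 with a pseudocount of 5. Sparc fell under 2-fold there with median scaling (0.97), quantile normalization (0.83), rescaling (0.94) and a pseudocount of 5 (0.99). The 9 members with separate groups in hair bulbs were 9 or 10 under every alternative run, and 10 without WT 57 or without KO 84. As reported, 26.8% of all loci were higher in both KO libraries than in both WT libraries, and 27.5% were lower. These shares were not counted under the alternatives. Groups separate more easily with a library left out, so nothing is read from the 10. Of 266 values of single members under alternatives, 0 past 2-fold changed sign, but sizes moved: without KO 64 and without KO 84, Col1a1 in hair bulbs was 1.19 and 3.82, Col3a1 1.27 and 3.62, and Fn1 0.58 and 2.53. Dcn in hair bulbs turned to -0.18 without KO 64, and in bulge cells was 2.08 with a pseudocount of 0.1 and 0.34 with 5. Rescaling moved the median log2 difference of all bulb loci from -0.03 to 0.13. Depth is unknown in absolute terms, so values under 1 FPKM carry no counting interval.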

Other observations

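Of the 10 genes, 3 reached a mean of 5 FPKM in all tables, and the genes with the most similar profile were looked up for each, over 8 libraries centred on the mean of their table and among 7394 genes. Bgn was closest to Timp3 (Pearson r = 0.99), Ptpn9 (0.99) and Tspan14 (0.99). Postn was closest to Gsn (0.99), Tppp3 (0.99) and Thy1 (0.99), the last a dermal fibroblast marker of the list used above. Sparc was closest to Kdm6b (0.99), Sepp1 (0.99) and 1810011O10Rik (0.98). The libraries of a table share a normalization and contribute few independent points, so these values are a description.

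Smoc2, which is not one of the 10, was higher in every deleted library than in every control library of the same table, in all 3 tables, and it was singled out after its values were seen. It stood at 40.6 and 213 FPKM in bulge cells, at 29.7 and 172 FPKM in Shh-CreER TACs, and at 22.7, 25.3, 110 and 154 FPKM in WT 52, WT 57, KO 64 and KO 84.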
